A study of Mus musculus with 12 samples.

Results

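Mammalian complex I, the NADH:ubiquinone oxidoreductase of the mitochondrial inner membrane, is built largely from nuclear genes whose symbols begin with Nduf, and these genes were followed across 4 adipose depots of the mouse. Every row of the count table whose gene symbol starts with Nduf was taken, which gave 45 of 23420 genes. Ndufs5 had a single read in the 12 libraries together, in iBAT library 3, and was not tested, so 44 of the 45 entered the tests. Whether its reads were lost in counting was not tested, and its expression in fat cannot be read from this value. RNA had been sequenced from 2 brown depots, the interscapular (iBAT) and the supraclavicular (scBAT), and from 2 white depots, the epididymal (eWAT) and the inguinal (iWAT), with 3 libraries each. All groups were untreated male C57BL/6 mice aged 8 weeks kept at ambient temperature. The series title gives the expression profiles of brown and white fat as its subject. The labels do not say whether the libraries of a depot came from separate animals, so p-values measure the spread between these samples, which may be technical. Each library is whole tissue, so fewer adipocytes and less RNA per adipocyte cannot be told apart.

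Complex I takes electrons from NADH, hands them through a flavin and a chain of iron-sulfur clusters to ubiquinone, and pumps protons out of the matrix. Its L shape has a matrix arm that carries the redox centres and a membrane arm that carries the pumps. The core subunits do the catalysis, the accessory subunits surround them, and the assembly factors help to build the enzyme without staying in it. Brown fat burns fuel in its mitochondria to make heat through the uncoupling protein Ucp1, whereas white fat mainly stores lipid and has fewer mitochondria. The membrane core subunits are encoded in mitochondrial DNA, and none of those 7 genes is a row of the count table. They were not analysed here.

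Of the 44 tested Nduf genes, 43 passed the test as higher in brown than in white fat and none as lower. Differences are the average of the fitted log2 levels of iBAT and scBAT minus the average of those of iWAT and eWAT. They were tested with edgeR's quasi-likelihood test, with Benjamini-Hochberg adjustment over 14898 genes and a threshold of 0.05. Over all tested genes, 31.3% were called higher and 38.1% lower in brown fat. The median difference of the 44 genes was 2.03 and that of all tested genes was −0.11. Adjusted p-values of the 43 ran from 2.6e-08 to 1.26e-05, and their log2 differences from 1.25 to 2.63. In each of the 43, all 6 brown libraries lay above all 6 white libraries, which 23.3% of all tested genes did. The same number, 43, passed as higher in each brown depot against each white depot taken alone, against 19.5% of all tested genes. The exception in each of these counts was Ndufa4l2.

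**Figure D1:**
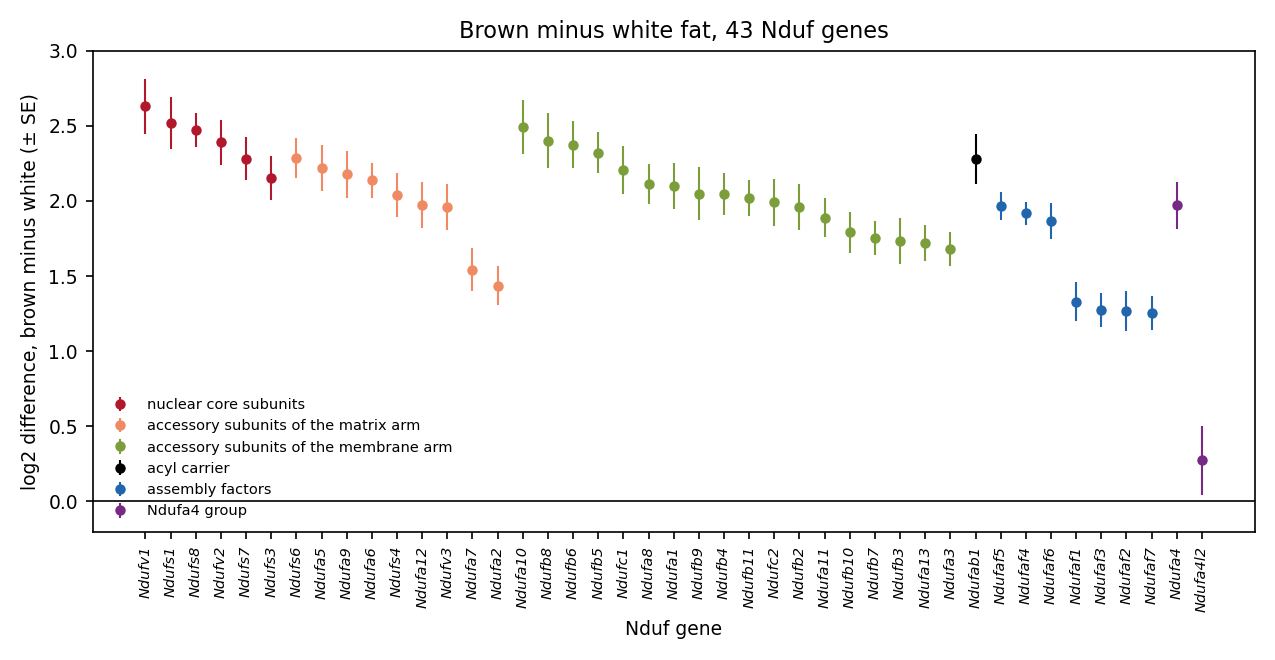
Log2 difference of brown minus white fat (points, bars ± SE derived from the edgeR F statistic) for 43 of the tested Nduf genes, coloured by role and sorted within each role. The core subunits drawn lie between 2.15 and 2.63, 4 of the 7 assembly factors lie near 1.3, and Ndufa4l2 at 0.27 is the only gene whose bar comes near 0.

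The Nduf genes together took a larger share of all reads in brown fat. In iBAT they held 1.56%, 1.58% and 1.45% of the counts, in the order of library number, and in scBAT 1.42%, 1.29% and 1.5%. In iWAT the shares were 0.346%, 0.515% and 0.319%. In eWAT they were 0.417%, 0.445% and 0.378%. The brown and white ranges did not overlap, and iWAT library 2 was the highest white library. Total counts per library were 17159401 to 29262554, so counting error is small beside these gaps. For the lowest share, that of iWAT library 3, the exact (Clopper-Pearson) 95% interval was 0.317% to 0.322%, which covers counting error only.

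Checks of the tissues used marker lists, each given as a sum in CPM (counts per library, scaled so that libraries of unlike depth and composition can be compared, with TMM factors). All 8 brown adipocyte markers were higher in brown fat, with sums of 4122 to 5417 against 94.0 to 403 in white fat, and all 5 white adipocyte markers were lower. Markers of other cells also moved with the groups. Of 16 skeletal muscle genes, 15 were higher in brown fat, with sums of 570 to 7269.6 against 77.4 to 307. All 8 macrophage genes were lower in brown fat, with sums of 203 to 401 against 1279 to 1490.0. All 8 B cell and all 7 T cell genes were lower in the brown minus white contrast too. Against iWAT alone all of them were lower in each brown depot, and against eWAT alone none was called. Their sums were highest in 2 of the iWAT libraries, as given with the white depots. No gene of these lists was at 0 in all 12 libraries. The part of these cells in the Nduf differences was not tested.

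The 7 nuclear core subunits were all higher in brown fat, with a median log2 difference of 2.39. Ndufv1, which binds NADH and the flavin where electrons enter, had the largest difference of all Nduf genes. The gene lies on chromosome 19 (GRCm38, bases 4007384 to 4012806, minus strand). Ndufv1 measured 1194, 1194 and 1134 CPM in iBAT, 1058, 987 and 1214 in scBAT, 139, 255 and 121 in iWAT, with 195, 212 and 175 in eWAT. Every brown library was above every white one, and the log2 difference was 2.63 (SE 0.18, adjusted p = 6.21e-07 in edgeR). Ndufs1, the largest iron-sulfur subunit, followed, with its gene on chromosome 1 (63143596 to 63176833, minus strand). Ndufs1 had values of 996, 975 and 975 CPM in iBAT, 908, 871 and 1038 in scBAT, 140.0, 240.3 and 120.0 in iWAT, with 158, 195 and 152 in eWAT. The groups did not overlap, and the difference was 2.52 (SE 0.17, edgeR adjusted p = 5.67e-07). Ndufv2, which carries an iron-sulfur cluster next to the flavin, differed by 2.39. Ndufv2 stood at 617, 653 and 592 CPM in iBAT, 569, 530.0 and 633 in scBAT, 96.3, 154 and 86.1 in iWAT, with 114, 131 and 105 in eWAT. The lowest brown value was above the highest white value.

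Other core subunits lie in the part of the matrix arm that reaches ubiquinone. Ndufs8 carries clusters late in the electron path and had the smallest error of the core genes, with a difference of 2.47 (SE 0.11, edgeR adjusted p = 5.06e-08). Ndufs8 measured 398, 396 and 354 CPM in iBAT, 352, 326 and 386 in scBAT, 60.7, 83.9 and 58.6 in iWAT, with 64.1, 73.7 and 58.0 in eWAT. Its 2 white depots lay close together apart from the higher iWAT library 2. Ndufs7, which holds the last cluster before ubiquinone, differed by 2.28. Ndufs7 had values of 458, 452 and 379.6 CPM in iBAT, 400.4, 336 and 416 in scBAT, 66.2, 108 and 63.9 in iWAT, with 90.8, 92.9 and 80.0 in eWAT. Again no white library reached the lowest brown one, scBAT library 2. Ndufs3, a structural core subunit of the same module, had the smallest core difference, 2.15. Ndufs3 measured 488, 496 and 453 CPM in iBAT, 451, 399 and 490.4 in scBAT, 84.9, 138 and 74.8 in iWAT, with 111, 117 and 99.7 in eWAT. Every brown library was above all white libraries.

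**Figure D2:**
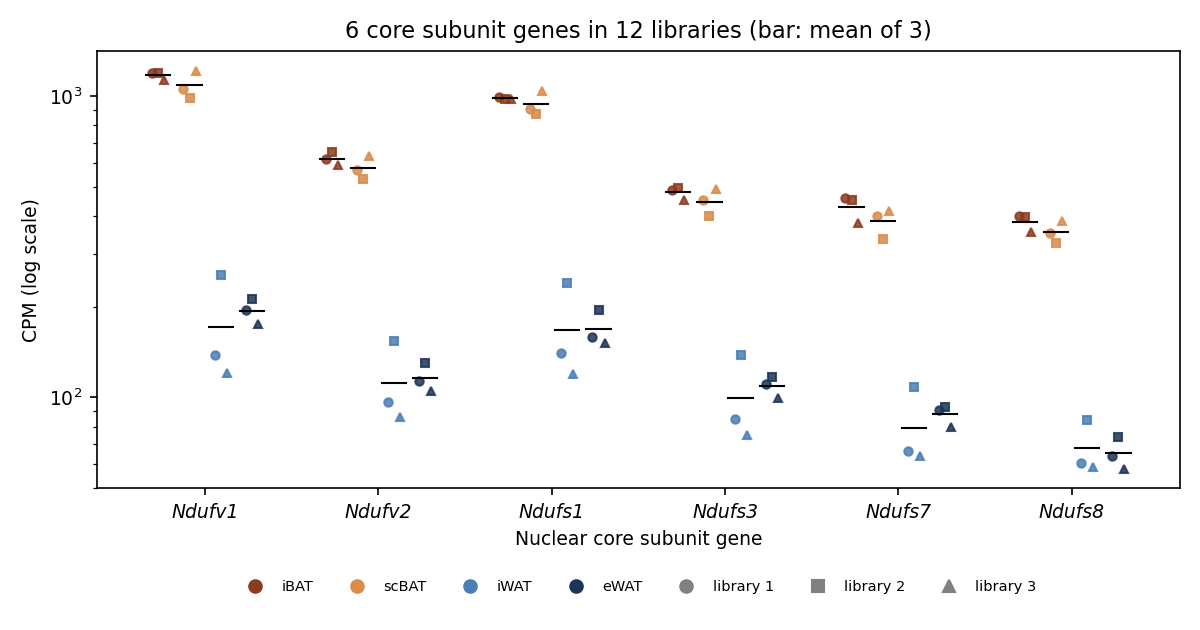
CPM on a log scale of 6 nuclear core subunit genes in the 12 libraries, coloured by depot with a marker shape per library number and a bar at each depot mean. For each gene the 6 brown points stand above the 6 white points, and iWAT library 2 is the highest white point.

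The 9 accessory subunits of the matrix arm were all higher in brown fat, with differences of 1.44 to 2.29 and a median of 2.04. Ndufs6, a zinc-binding subunit, differed by 2.29, Ndufa5 by 2.22, Ndufa9 by 2.18 and Ndufa6 by 2.14. Ndufs4, whose loss is used as a mouse model of Leigh syndrome, differed by 2.04, Ndufa12 by 1.97 and Ndufv3 by 1.96. The lowest differences of the group were those of Ndufa7 and Ndufa2. Ndufa7 had values of 253, 264 and 237 CPM in iBAT, 236, 215 and 256 in scBAT, 66.6, 109 and 58.1 in iWAT, with 95.3, 90.7 and 83.1 in eWAT. Its difference was 1.54 (SE 0.14, edgeR adjusted p = 4.48e-06), with no overlap. Ndufa2 stood at 253, 261 and 244 CPM in iBAT, 222, 228 and 267 in scBAT, 71.6, 117 and 68.6 in iWAT, with 97.9, 100.4 and 89.7 in eWAT. Ndufa2, a small subunit of the NADH-oxidising end, differed by 1.44 (SE 0.13, edgeR adjusted p = 4.11e-06), also without overlap. It is the structural subunit gene with the smallest difference.

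The 18 tested accessory subunits of the membrane arm were all higher in brown fat, with differences of 1.68 to 2.49 and a median of 2.03. Ndufa10, whose protein resembles a nucleoside kinase, was the highest of them at 2.49 (SE 0.18, edgeR adjusted p = 8.07e-07). Ndufa10 measured 975, 949 and 881 CPM in iBAT, 901, 797 and 990.0 in scBAT, 128, 227 and 109 in iWAT, with 174, 191 and 149 in eWAT. Brown libraries did not overlap white ones. Ndufb8 and Ndufb6, both membrane-spanning subunits, differed by 2.4 and 2.37. Ndufb8 had values of 842, 892 and 850.2 CPM in iBAT, 773, 743 and 865 in scBAT, 116, 219.9 and 101 in iWAT, with 165, 187 and 152 in eWAT. Ndufb6 stood at 323, 337 and 322 CPM in iBAT, 289, 279 and 329.7 in scBAT, 46.8, 81.3 and 43.5 in iWAT, with 63.6, 72.7 and 54.8 in eWAT. Both showed the same order, with iWAT libraries 1 and 3 lowest and iWAT library 2 above eWAT. Ndufa3, a small membrane subunit, had the smallest difference of the group at 1.68 (SE 0.11, edgeR adjusted p = 5.44e-07). Ndufa3 measured 203, 199 and 192 CPM in iBAT, 182, 186 and 205 in scBAT, 50.4, 77.7 and 49.7 in iWAT, with 64.1, 65.9 and 56.6 in eWAT. The lowest brown value was still above the highest white value. Between these, Ndufb5 differed by 2.32, Ndufc1 by 2.20, Ndufa8 by 2.11, Ndufa1 by 2.10, Ndufb9 by 2.05, Ndufb4 by 2.04, Ndufb11 by 2.02 and Ndufc2 by 1.99. Ndufb2 followed with 1.96, Ndufa11 with 1.89, Ndufb10 with 1.79, Ndufb7 with 1.75, Ndufb3 with 1.73 and Ndufa13 with 1.72. Ndufab1, the mitochondrial acyl carrier protein, which serves fatty acid synthesis as well as complex I, differed by 2.28 (SE 0.17, edgeR adjusted p = 8.22e-07).

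The 7 assembly factors were all higher in brown fat, but their median difference of 1.33 stood below that of the core subunits, and each of the 7 core differences was larger than each of the 7 assembly factor differences. This comparison of groups was not tested. Ndufaf5, an enzyme that hydroxylates Ndufs7 during assembly, differed by 1.97 (SE 0.09, edgeR adjusted p = 6.34e-08). Ndufaf5 had values of 49.6, 56.1 and 49.9 CPM in iBAT, 47.8, 41.2 and 48.0 in scBAT, 12.2, 15.4 and 12.2 in iWAT, with 12.6, 12.1 and 10.3 in eWAT. Ndufaf4, which binds the early matrix arm intermediate together with Ndufaf3, differed by 1.92 and had the smallest adjusted p of all Nduf genes (SE 0.07, edgeR adjusted p = 2.6e-08). Ndufaf4 stood at 102, 88.1 and 101 CPM in iBAT, 89.9, 92.0 and 100 in scBAT, 25.2, 29.3 and 24.2 in iWAT, with 25.3, 24.9 and 23.1 in eWAT. Its white libraries kept within 23.1 to 29.3 CPM, so iWAT library 2 stood out less than it did for the subunits. Ndufaf6, an early assembly factor, differed by 1.87. Ndufaf6 measured 21.8, 23.6 and 19.6 CPM in iBAT, 20.3, 18.4 and 20.2 in scBAT, 4.68, 6.69 and 5.14 in iWAT, with 6.28, 6.30 and 4.86 in eWAT. No white library overlapped the brown ones.

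The other 4 assembly factors had the smallest called differences of the family. Ndufaf1, part of the membrane arm assembly complex, differed by 1.33 (SE 0.13, edgeR adjusted p = 6.71e-06). Ndufaf1 had values of 69.4, 71.8 and 61.1 CPM in iBAT, 64.3, 56.9 and 67.2 in scBAT, 20.7, 32.9 and 19.2 in iWAT, with 28.9, 28.2 and 25.9 in eWAT. Ndufaf3 differed by 1.27 (SE 0.11, edgeR adjusted p = 3.23e-06). Ndufaf3 stood at 58.1, 53.8 and 43.1 CPM in iBAT, 51.6, 46.2 and 48.7 in scBAT, 17.8, 25.4 and 17.5 in iWAT, with 22.3, 21.6 and 20.1 in eWAT. Brown and white libraries did not overlap for either gene. Ndufaf2, a relative of Ndufa12 that acts late in assembly, also differed by 1.27 (SE 0.13, edgeR adjusted p = 1.26e-05). Ndufaf2 measured 32.1, 31.6 and 28.8 CPM in iBAT, 27.3, 26.1 and 31.5 in scBAT, 9.81, 15.9 and 9.18 in iWAT, with 13.6, 12.5 and 12.9 in eWAT. An annotated noncoding RNA on the opposite strand covers 65.6% of the annotated exon bases of Ndufaf2, and whether counting used strand is not given in the sources used here, so its reads are uncertain. Ndufaf7, a methyltransferase, had the smallest called difference, 1.25 (SE 0.11, edgeR adjusted p = 3.1e-06). Ndufaf7 had values of 65.3, 77.7 and 70.7 CPM in iBAT, 61.9, 65.9 and 68.9 in scBAT, 23.8, 35.2 and 22.8 in iWAT, with 32.0, 29.5 and 28.7 in eWAT. Its white libraries, 22.8 to 35.2 CPM, stayed below its brown ones.

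The makeup of the Nduf reads also differed between brown and white fat. Core subunits took 32.0% to 32.9% of the Nduf counts of a library in brown fat and 26.3% to 27.7% in white fat. Assembly factors took 2.24% to 2.41% in brown and 3.22% to 4.12% in white fat. Accessory subunits of the membrane arm moved less, with 41.0% to 41.5% in brown and 42.2% to 42.9% in white fat. The ranges did not overlap in any of these 3 comparisons, and they are descriptions without a test.

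**Figure D3:**
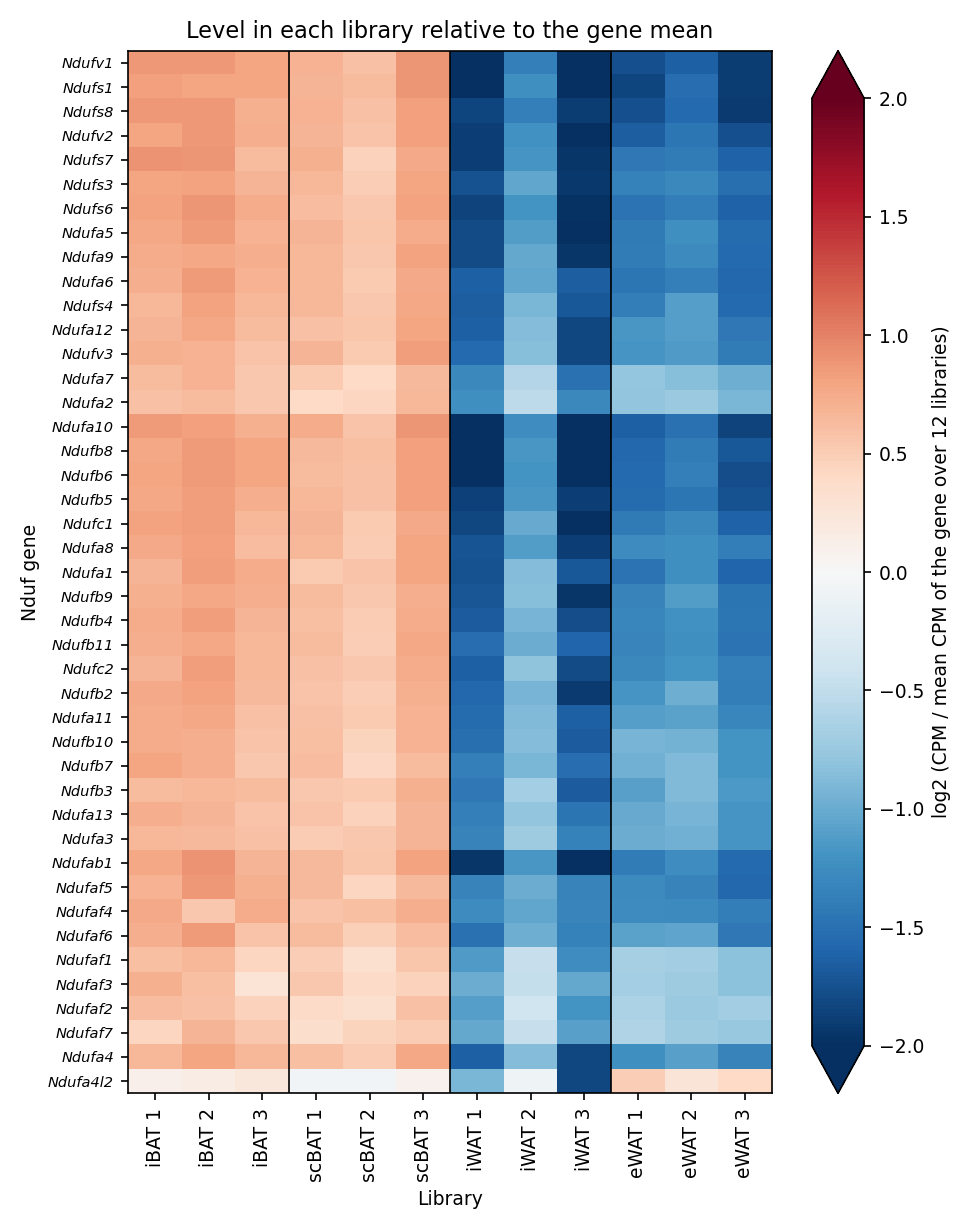
Log2 of the CPM in each library over the gene's mean of the 12 libraries, for 43 of the tested Nduf genes (rows, by role) and 12 libraries (columns), with the colour scale ending at −2 and 2. Brown libraries are red and white libraries blue in every row but the last, iWAT library 2 is paler than iWAT libraries 1 and 3, and that last row, Ndufa4l2, is red in eWAT.

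Per kilobase of transcript, using the median length of the coding transcripts of each gene, the assembly factors were below every tested structural subunit in iBAT but not in white fat. In iBAT the core subunits Ndufs1 and Ndufv1 stood at 374 and 768 CPM per kilobase, and the assembly factors lay between 20.1 for Ndufaf6 and 50 for Ndufaf2. The lowest tested subunits in iBAT, Ndufb4 and Ndufb2, stood at 76.0 and 81.0. In eWAT Ndufs1 and Ndufv1 stood at 64.2 and 127, and the assembly factors lay between 5.38 for Ndufaf6 and 21.0 for Ndufaf2. Ndufb4, at 18.1 in eWAT, was below both Ndufaf2 and Ndufaf1 (19.1), and Ndufb2, at 21.6, was level with Ndufaf2. In iWAT, Ndufb4 and Ndufb2 stood at 17.1 and 18.2, Ndufaf2 at 18.9 and Ndufaf1 at 16.7, so only Ndufaf2 was above a subunit there. The reads of Ndufaf2 are uncertain, as given with the assembly factors. Its median coding transcript length was 617 bases, against 2978 annotated exon bases. Ndufa4 had the highest level of the family in both, 1600.4 CPM per kilobase in iBAT and 422 in eWAT, and Ndufb9 followed with 1129 and 275. These levels rest on the annotated lengths, which may not be those of the transcripts in fat. Near-identical copies and overlapping genes can also share reads. On the opposite strand, Smim27 covers 39.0% of the exon bases of Ndufb6 and Tssk6 30.0% of those of Ndufa13, and on the same strand the model Gm49356 covers 19.5% of those of Ndufb9.

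Ndufa4 and Ndufa4l2 are related genes that behaved differently. Ndufa4, first assigned to complex I and later recognised as a subunit of complex IV, lies on chromosome 6 (11900292 to 11907497, minus strand). Ndufa4 stood at 715, 778 and 715 CPM in iBAT, 684, 641 and 767 in scBAT, 145, 246 and 127 in iWAT, with 193, 212 and 178 in eWAT. It was higher in brown fat by 1.97 (SE 0.16, edgeR adjusted p = 1.68e-06), without overlap. Ndufa4l2, on chromosome 10 (127514967 to 127517154, plus strand), is known as a target of the hypoxia-inducible factor, and its protein is known to lower complex I activity. Ndufa4l2 measured 10.3, 10.6 and 11.2 CPM in iBAT, 9.19, 9.19 and 10.1 in scBAT, 5.06, 9.02 and 2.70 in iWAT, with 13.5, 11.4 and 12.6 in eWAT. Its highest values were in eWAT and its lowest in iWAT libraries 1 and 3, and iWAT library 2 lay just below the brown libraries. The brown minus white difference of 0.27 (SE 0.23) did not pass the test (edgeR adjusted p = 0.307). Without iWAT library 2 it was 0.55 (edgeR adjusted p = 0.00458), and without iWAT libraries 1 and 3 it was −0.062 (edgeR adjusted p = 0.576).

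Against single depots, Ndufa4l2 was higher in iBAT than in iWAT by 0.94 (edgeR adjusted p = 0.0277). The difference of scBAT minus iWAT was 0.77 and did not pass the test (edgeR adjusted p = 0.0621). The differences from eWAT were −0.22 for iBAT and −0.39 for scBAT, and neither passed (edgeR adjusted p = 0.587 and 0.333). Counts of Ndufa4l2 as a percentage of those of Ndufa4 were 1.44, 1.37 and 1.56 in iBAT, 1.34, 1.43 and 1.32 in scBAT, 3.50, 3.67 and 2.12 in iWAT. In eWAT they were 7.01, 5.40 and 7.08. The 4 depots fell into 3 levels on this ratio, with the brown depots together and lowest, iWAT between and eWAT highest, and no overlap between the levels. This ratio was not tested.

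**Figure D4:**
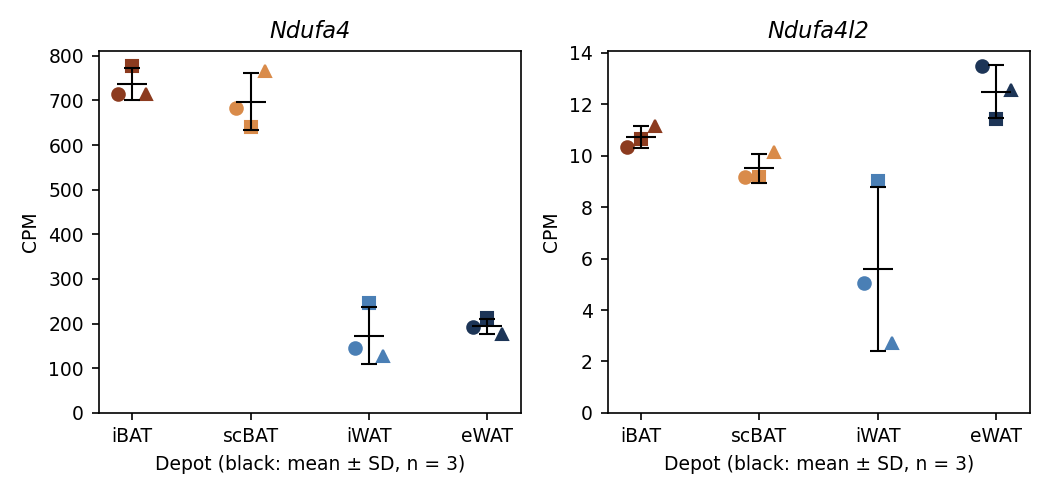
CPM of Ndufa4 (left) and Ndufa4l2 (right) per library, with circles, squares and triangles for libraries 1, 2 and 3 and black bars for the mean ± SD of 3 libraries per depot. Ndufa4 is 641 to 778 CPM in brown fat and 127 to 246 in white fat, whereas Ndufa4l2 is highest in eWAT and spreads from 2.70 to 9.02 CPM in iWAT.

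The brown depots were compared next, which asks whether supraclavicular fat differs from interscapular fat. None of the 44 Nduf genes passed the test in either direction, and none had an unadjusted p under 0.05 with edgeR, DESeq2 or limma-voom. Over all tested genes, 0.235% were called higher and 0.094% lower in scBAT. The estimates leaned one way, with 43 of 44 below 0 and a median of −0.10, against −8.4e-06 for all tested genes. They ranged from −0.18 to 0.02, and the smallest unadjusted edgeR p was 0.18. The 44 genes share the same libraries, so their signs are not 44 separate observations. Their median was −0.049 without scBAT library 2 and −0.16 without scBAT library 3. Leaving Ndufa4l2 aside, the 95% intervals of the single genes reached from −0.69 to 0.51 on the log2 scale. Differences within that range cannot be read off this fit either way. The fit shared the spread of each gene across all depots. The median coefficient of variation was 33.3% in iWAT against 8.60% in scBAT and 5.42% in iBAT. These intervals may therefore be wider than the spread of the brown libraries alone would give. Without iWAT library 2, still no Nduf gene had an unadjusted edgeR p under 0.05. For 42 of the 44 genes iBAT had the highest depot mean, and for Ndufv3 scBAT did. Summed muscle markers were 570 to 2433 CPM in iBAT and 2203 to 7269.6 in scBAT, and 14 of the 16 were above 0 in scBAT minus iBAT with none called. All 16 had an unadjusted edgeR p under 0.05. The share of all tested genes under that value is not given here. The 16 genes also share the same libraries, so they are not 16 separate observations. Myh7 and Tnnt1 were below 0, at −5.27 and −2.80. All 8 macrophage genes were above 0 and 3 passed as higher in scBAT, Csf1r, C1qa and C1qb (log2 0.87, 0.88 and 0.79, edgeR adjusted p = 0.014, 0.0148 and 0.031), with sums of 358 to 401 CPM against 203 to 251 in iBAT. The part of muscle and macrophage RNA in the small lean was not tested.

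The white depots were compared in the same way. Of the 44 genes, none was higher in iWAT than in eWAT and 1 was lower, Ndufa4l2, at −1.16 (SE 0.33, edgeR adjusted p = 0.0275). Over all tested genes, 17.7% were called higher and 11% lower in iWAT. The median of the 44 differences was −0.14, with 39 below 0 and 5 above. For 39 genes iWAT had the lowest depot mean and for 5 eWAT did. The 3 iWAT libraries were unlike each other. In all 44 genes iWAT library 2 was the highest of the 3, which held for 46.6% of all tested genes. In 38 genes iWAT libraries 1 and 3 lay below every eWAT library while iWAT library 2 lay above every one, a pattern that 11.3% of all tested genes had. The median coefficient of variation of the genes was 33.3% in iWAT, against 9.57% in eWAT, 8.60% in scBAT and 5.42% in iBAT. Over all tested genes the corresponding medians were 28.3%, 8.09%, 10% and 9.75%.

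The iWAT libraries also differed in their markers. Summed B cell markers were 1423 CPM in iWAT library 1, 81.6 in library 2 and 1950.1 in library 3, and no library of another depot was above 39.5. Summed T cell markers were 792, 54.2 and 1222 in the same order, and no library of another depot was above 19.1. Summed pan-adipocyte markers (Adipoq, Plin1, Fabp4, Pparg, Lipe and Cidec) were 5432, 9082 and 3537 in iWAT and 8267 to 9264 in eWAT. Summed Nduf levels were 2974, 4913 and 2678 CPM in iWAT. In eWAT they were 3852, 4198 and 3468 CPM. Relative to the pan-adipocyte sum, the Nduf sum was 0.547, 0.541 and 0.757 in iWAT and 0.416, 0.457 and 0.420 in eWAT. On this ratio all 3 iWAT libraries stood above all 3 eWAT libraries. The Nduf sum also counts reads of other cells, so the ratio is not a level per adipocyte. It was highest among the white libraries in iWAT library 3, which had the highest B and T cell sums. The same ratio was 1.89 to 2.45 in the brown libraries. The part of lymphoid cells in the white depot values was not tested beyond these numbers.

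**Figure D5:**
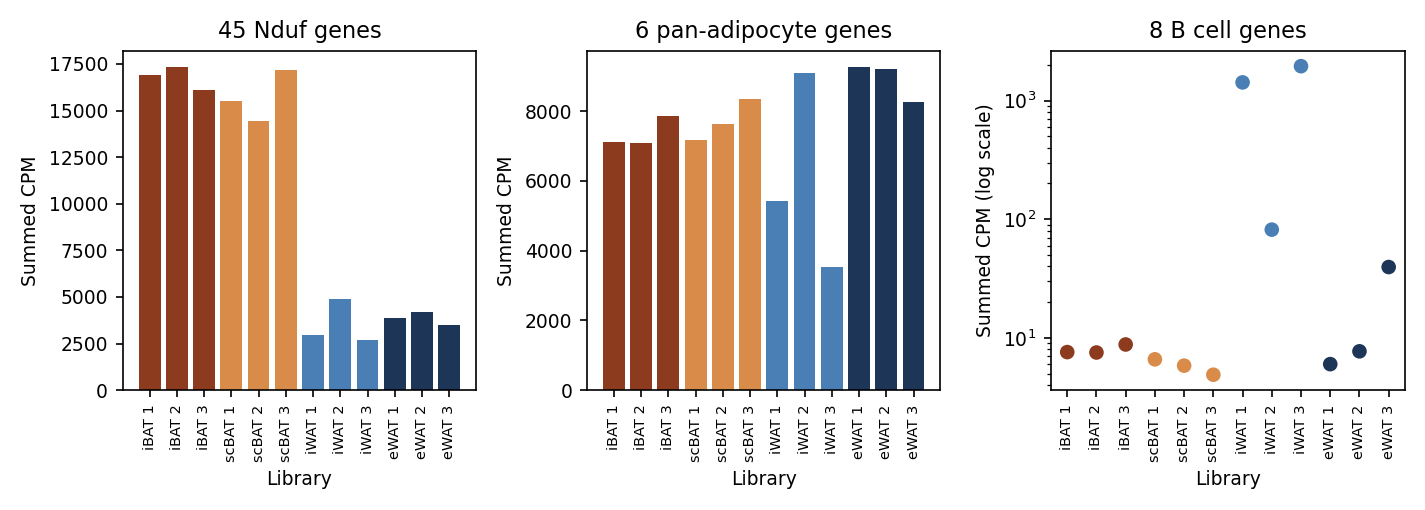
Summed CPM per library of the 45 Nduf genes (left, bars), the 6 pan-adipocyte markers (middle, bars) and the 8 B cell markers (right, log scale). iWAT libraries 1 and 3 have the lowest Nduf and pan-adipocyte sums and the highest B cell sums, whereas the brown libraries hold 14419 to 17341 CPM of Nduf reads.

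Calls between the white depots changed with single libraries. Without iWAT libraries 1 and 3, 43 of the 44 differences were above 0, their median was 0.36 and 4 genes passed as higher in iWAT. These were Ndufa1 (0.58, edgeR adjusted p = 0.0315), Ndufs1 (0.53, adjusted p = 0.0471), Ndufc2 (0.50, adjusted p = 0.0198) and Ndufa6 (0.44, adjusted p = 0.0439). With a single iWAT library left, its spread is assumed to be that of the other depots. Ndufa4l2 was then at −0.45 and no longer passed (edgeR adjusted p = 0.135). Without iWAT library 2, 37 of the 44 genes passed as lower in iWAT. Their median was −0.43, against −0.012 for all tested genes. The shares of all tested genes called in these left-out fits are not given here, so these counts stand without a background. The Ndufa4l2 call was lost without iWAT library 1 and without any one of the 3 eWAT libraries. The brown minus white median stayed near its value, at 1.84 without iWAT libraries 1 and 3 and 2.19 without iWAT library 2.

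The sequence just upstream of the genes was examined because 43 of them moved together between brown and white fat. RefSeq windows of GRCm38.p6, from 250 bases before to 50 after the gene start, were matched for 39 of the 45 genes, with each gene counted once where it has several windows, and short letter motifs of known regulators of mitochondrial genes were searched on both strands. The 3 windows below are the 150 bases before the start of Ndufs8, a core subunit with none of the motifs, and of Ndufa11 and Ndufaf4, whose NRF1 letters on overlapping strands are in capitals. They are chr19:3912775-3912924 (minus strand), chr17:56717612-56717761 (plus strand) and chr4:24897933-24898082 (plus strand).
Ndufs8: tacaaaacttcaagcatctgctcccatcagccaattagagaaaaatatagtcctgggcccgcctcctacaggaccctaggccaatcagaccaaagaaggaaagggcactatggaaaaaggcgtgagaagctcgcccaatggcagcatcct
Ndufa11: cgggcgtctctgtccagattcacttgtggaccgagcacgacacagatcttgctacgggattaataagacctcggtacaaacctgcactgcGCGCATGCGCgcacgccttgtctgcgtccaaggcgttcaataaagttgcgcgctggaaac
Ndufaf4: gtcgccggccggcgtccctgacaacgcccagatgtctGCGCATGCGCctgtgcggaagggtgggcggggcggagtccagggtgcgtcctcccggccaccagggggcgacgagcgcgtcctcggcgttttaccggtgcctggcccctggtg

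The NRF1 letters GCGCATGCG were found in 4 of the 39 genes (10.3%), Ndufa8, Ndufa11, Ndufaf4 and Ndufaf5, against 3.77% of 10941 tested genes and 1.95% of all genes with a window. This motif is nearly its own reverse complement, so most of its matches overlap on both strands. In Ndufaf5 the matches began after the gene start, 16 and 17 bases after it. The YY1 letters AANATGGCG were found in 7 genes (17.9%), against 5.30% of tested genes and 2.76% of all genes, namely Ndufa7, Ndufa9, Ndufb11, Ndufc1, Ndufs4, Ndufs6 and Ndufs7. In 5 of those genes the match began after the gene start, 22 bases after it in Ndufc1, 24 in Ndufs7, 29 in Ndufa9, 33 in Ndufs6 and 35 in Ndufs4. The ERR letters AAGGTCA were found in 3 genes (7.69%), Ndufb2, Ndufb4 and the untested Ndufs5, against 5.38% of all genes and 4.09% of tested genes. The ETS/GABP letters CCGGAAGT were found in 1 gene (2.56%), Ndufs3, against 8.05% of tested genes and 4.31% of all genes. Tested genes with any of these letters had brown minus white differences from 1.54 (Ndufa7) to 2.29 (Ndufs6). Ndufv1 at 2.63 and Ndufs8 at 2.47 had larger differences and none of the letters in their windows. Ndufaf7, Ndufaf2, Ndufaf3 and Ndufaf1, at 1.25 to 1.33, had smaller differences and none of the letters either. Genes without the letters lay on both sides of that range. They were the larger group, so their wider range says nothing about the part of the letters, which was not tested. A match of letters is a description and does not show that a factor binds.

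Other genes that bear on complex I were taken from lists. Of the 12 assembly factors without the Nduf name, 11 were found in the table and all 11 were higher in brown fat, with a median of 1.5. Ecsit, which works with Ndufaf1, differed by 2.05 (SE 0.13, edgeR adjusted p = 2.93e-07), and Aifm1, which imports subunits into the intermembrane space, by 2.05. Foxred1, a late assembly factor, differed by 1.90, and the lowest of the 11, listed under its older symbol 3110001D03Rik, by 0.52. Atp5sl, now named Dmac2, differed by 1.56 (SE 0.17, edgeR adjusted p = 1.73e-05) and was also higher in iWAT than in eWAT by 0.98 (edgeR adjusted p = 0.018). It was the only one of the 11 called between the white depots, beside 17.7% higher and 11% lower of all tested genes.

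The enzymes that also feed electrons to ubiquinone were all higher in brown fat, 9 of 9, with a median of 2.24. Gpd2, the mitochondrial glycerol-3-phosphate dehydrogenase, which bypasses complex I, had the largest difference of the list, 3.52 (SE 0.20, edgeR adjusted p = 1.91e-07). Its mean was 1662 CPM ± 141 (SD, n = 3) in iBAT and 123 ± 18.3 in eWAT. Etfdh, which passes on electrons from fatty acid oxidation, differed by 2.72, and the complex II subunits Sdhd, Sdhb and Sdha by 2.51, 2.4 and 2.24. Dhodh, an enzyme of pyrimidine synthesis, differed least, by 0.87 (SE 0.07, edgeR adjusted p = 2.52e-06). None of the 9 was called between iBAT and scBAT or between iWAT and eWAT. Over all tested genes, 0.235% were called higher and 0.094% lower in scBAT than in iBAT. Between the white depots, 17.7% were called higher and 11% lower in iWAT.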

How the data were processed

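RNA from 12 adipose libraries had been sequenced, and the authors deposited raw counts, whole reads per gene symbol, without normalization. Per the submitters' processing notes the tools were bcl2fastq 1.8.3, STAR 2.4.2a, Picard 1.119, HTSeq 0.6.1p1 and edgeR, with genome build mm10. Their roles, the annotation and the strand setting are not given in the sources used here.

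Genes were filtered with filterByExpr of edgeR 4.0.16 in R 4.3.3, which left 14898 genes. One quasi-likelihood fit (TMM, robust) held all 12 libraries with a mean per depot and 8 residual degrees of freedom, and p-values were adjusted over all tested genes. The fit was tested on simulated data. Levels are CPM. Alternatives were DESeq2 1.42.0, limma-voom (limma 3.58.1), other scalings, no filter, a replicate block, and leaving libraries out. Positions and transcript lengths come from GENCODE M21 for GRCm38, and promoter windows from RefSeq GRCm38.p6.

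Library values are printed for the core subunits, assembly factors, Ndufa4 and Ndufa4l2, and the 3 other members with the largest and the 3 with the smallest brown minus white difference. A result that this rule takes in is not reported here. Members and lists were chosen with earlier results of these data known. Nduf genes that are not rows of the table were not analysed here.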

Additional observations from a re-analysis of the deposited data

How the results depend on the processing

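The number of Nduf genes higher in brown fat was 43 or 44 and the number lower was 0 under every alternative run, which were no low-count filter, DESeq2's size factors or upper quartile scaling in the edgeR fit, DESeq2, limma-voom, the replicate block and each left-out library. Ndufa4l2 reversed to −0.062 without iWAT libraries 1 and 3, and passed the test at 0.55 without iWAT replicate 2. The counts between scBAT and iBAT stayed at 0. Between iWAT and eWAT, 4 genes were higher and 0 lower without iWAT libraries 1 and 3, and leaving out single replicates gave 0 to 37 lower genes, with 37 without iWAT replicate 2 and 0 without iWAT replicate 1 or any eWAT replicate. The shares of all tested genes called with these libraries left out are not given here, and the cause was not tested. The scalings moved the brown minus white median of all tested genes from −0.11 to −0.09 and −0.17.

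No pairing of libraries by replicate number was seen across depots. Residuals of same-numbered libraries correlated between −0.184 and 0.234 over 18 pairs, and those of other numbers between −0.27 and 0.337 over 36 pairs. Of 12 libraries, 3 correlated best with their own number. With 3 libraries per depot, this check cannot exclude that same-numbered libraries came from the same mouse. With the replicate block, 43 genes were higher in brown fat and 1 was lower in iWAT than in eWAT (Ndufa4l2), as without it. Ndufs5, with 1 read, was too low to test.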

Other observations

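Of 8 genes that supply NADH or shuttle it into mitochondria, 4 were higher and 2 lower in brown fat, beside 31.3% higher and 38.1% lower of all tested genes. The list was not tested against the Nduf genes. The malate dehydrogenases Mdh2 and Mdh1 differed by 1.90 and 1.28, the aspartate aminotransferase Got1 by 1.48 and the oxoglutarate carrier Slc25a11 by 1.51 (edgeR adjusted p from 1.11e-07 to 0.000154). The aspartate-glutamate carrier Slc25a13 was lower by a log2 difference of −2.01 (edgeR adjusted p = 0.000203), at a mean of 0.548 CPM ± 0.085 (SD, n = 3) in iBAT and 1.91 ± 0.249 in eWAT. Its relative Slc25a12 was at −0.60 and did not pass the test (edgeR adjusted p = 0.0959). Nnt, the proton-driven transhydrogenase that turns NADH into NADPH, was at −1.99 (SE 0.14, edgeR adjusted p = 5.74e-07), with 5.31 CPM ± 0.423 in iBAT and 30.8 ± 0.761 in eWAT. The C57BL/6J substrain is known to carry a deletion within Nnt, and the labels give C57BL/6 without the substrain.

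Of 11 regulators of mitochondrial genes, 7 were higher and 2 lower in brown fat, beside 31.3% higher and 38.1% lower of all tested genes. The coactivators Ppargc1b and Ppargc1a differed by 3.72 and 3.31 and the nuclear receptors Esrrg, Esrrb and Esrra by 4.09, 2.89 and 2.16. Tfam, which packages mitochondrial DNA, and Gabpa differed by 0.85 and 0.67. Nrf1 and Gabpb1 were lower, at −0.42 and −0.56 (edgeR adjusted p = 0.0256 and 0.0186). In both genes iWAT had the highest mean. Nrf1 had means of 18.6 CPM in iBAT, 20.5 in scBAT and 20.2 in eWAT against 33.7 in iWAT, and Gabpb1 16.9, 14.7 and 18 against 30.1. No regulator was called lower in either brown depot against eWAT. Yy1 was at −0.0099 (edgeR adjusted p = 0.908). In the white depots 3 of the 11 passed as higher in iWAT than in eWAT and 0 as lower, beside 17.7% and 11% of all tested genes. They were Nrf1 by 0.74 (edgeR adjusted p = 0.0271), Tfam by 0.54 (edgeR adjusted p = 0.026) and Gabpa by 0.25 (edgeR adjusted p = 0.042). The B and T cell sums were also highest in iWAT, and the part of these cells in the 3 differences was not tested.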
